A study of Mus musculus with 4 samples.

Results

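Elavl HITS-CLIP peaks that lie outside every annotated mouse gene are described here. HITS-CLIP crosslinks a protein to RNA with UV light, recovers the protein with its bound RNA and sequences the RNA fragments left after partial RNase digestion. Peaks came from 2 deposited lists, 1 for 3 samples of cortex (brain tissue, degenerate linker of 25 nt) and 1 for 1 sample of N2A (a mouse neuroblastoma cell line, degenerate linker of 7 nt). Linker length therefore differed with the group, and the labels give neither genotype nor antibody. Labels and list of the cortex samples carry the word 2month, and whether this is the age of the mice is not stated. A peak belonged here if it overlapped no GRCm38 gene span of any biotype and lay on a named chromosome. This held for 3404 of 105110 deposited peaks, namely 3146 of 97723 on named chromosomes in cortex and 258 of 7316 in N2A. Each was then classed by its distance past the nearest upstream gene end on its own strand, as under 2 kb, 2 to 10 kb, 10 to 50 kb or over 50 kb.

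Elavl proteins (Elavl1, or HuR, in most cells, and Elavl2, Elavl3 and Elavl4 mainly in neurons) bind U-rich and AU-rich RNA. They are known for acting on introns and on the untranslated 3′ ends of mRNAs. Neurons often make mRNAs with long 3′ ends, so that an annotated gene end may fall short of the RNA made in brain. A peak outside genes can also lie in a transcript that the annotation does not hold. Which RNA carried a peak was not measured.

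Each list gave a position and the authors' p-value for each peak. Read counts were not part of it, so the depth behind a peak is unknown, and the 3 cortex samples shared 1 list. There is thus no spread between replicates and no test of a difference between cortex and N2A. Intervals are 95% intervals for counting error alone, and neighbouring peaks are not independent. Copies of a fragment made by PCR are not independent either.

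Peaks outside genes made up 3.22% of the cortex peaks (Wilson interval 3.11 to 3.33) and 3.53% of the N2A peaks (3.13 to 3.97). The difference, cortex minus N2A, was -0.31 percentage points (Newcombe interval -0.77 to 0.11), an interval that holds 0. They lay on all 21 named chromosomes in both lists. In cortex the number per Mb of sequence outside genes, both strands counted, was highest on chromosome 14, with 271 peaks or 2.07 per Mb. Many of these 271 followed 1 gene, Slitrk1, with 29 at 10 to 50 kb and 88 over 50 kb past its end. The number per Mb was lowest on the Y chromosome, with 6 peaks or 0.0343 per Mb. In N2A it was highest on chromosome 15, with 32 peaks or 0.290 per Mb, and lowest on the X chromosome, with 4 peaks or 0.0171 per Mb. The share outside genes depended on which annotation counted as a gene. With coding gene spans alone it was 5.08% in cortex and 5.19% in N2A.

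The reference held no genome, so only peaks within the promoter windows of RefSeq (GRCm38.p6, 250 bases before to 50 after a gene start) could be read as sequence. Full coverage by such a window was found for 2 of the cortex peaks outside genes and for 0 of the N2A peaks. They are shown as the only members whose bases could be set beside the known U-rich preference, in the DNA alphabet on the peak's own strand, with runs of 4 or more T in capitals. The first lies on the plus strand at chr11:44618005-44618056, 44 nt before the start of Ebf1, a transcription factor of B cells and neurons, and the second on the minus strand at chr8:70697563-70697614, on the strand opposite to Jund, an AP-1 transcription factor, 125 nt from its start.
Ebf1 peak: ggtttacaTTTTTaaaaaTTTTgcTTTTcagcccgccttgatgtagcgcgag
Jund peak: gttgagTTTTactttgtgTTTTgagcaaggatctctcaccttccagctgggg
Both sequences were 38.5% T. Whether deposited positions count from 0 or 1 is not stated, so each sequence may be off by 1 base. The Ebf1 peak had a deposited p of 4.28e-08 and the Jund peak one of 0.0229. A run of 5 T (TTTTT) stood in the Ebf1 peak, on either strand, and in the Jund peak on neither. It stood in 51 of 69 cortex peaks that touched a gene and lay within such windows (73.9%), and on the opposite strand of 2 of these (2.90%). In N2A it stood in 2 of 9 such peaks (22.2%), and on the opposite strand of 1 (11.1%). Among the first 52 bases of all 32851 windows 6.81% held it. The motif ATTTA was in neither of the 2 sequences, nor was TTTNTTT, which overlaps TTTTT.

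The nearest upstream gene was coding for 2370 cortex peaks (75.3%) and 188 N2A peaks (72.9%), and a long noncoding RNA gene for 580 (18.4%) and 64 (24.8%). Coding genes were 21887 of all 49943 genes. Of the 19973 genes with no known strand, which could not count as upstream, 2732 were coding. The choice of upstream gene therefore favoured coding genes. A microRNA gene was nearest upstream of 151 cortex peaks, spread over 29 microRNA genes, and of 4 N2A peaks. Mature microRNAs of the 4 such genes with most cortex peaks are shown as identities of these upstream genes, with the seed (bases 2 to 8) in capitals, from RefSeq with coordinates of GRCm38.p6. No 2 of the 6 share a seed.
mmu-miR-137-5p: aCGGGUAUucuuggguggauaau
mmu-miR-137-3p: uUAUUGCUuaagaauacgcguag
mmu-miR-882: aGGAGAGAguuagcgcauuagu
mmu-let-7c-5p: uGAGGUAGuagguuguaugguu
mmu-let-7c-1-3p: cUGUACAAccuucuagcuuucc
mmu-miR-344i: aAGUCAGGcuccuggcugga
Mir137, on chromosome 3, had 36 cortex peaks downstream on its plus strand, from 2.43 to 64.3 kb past the hairpin, with a lowest p of 7.40e-16. Mir882 (chromosome 12) had 22, at 1.65 to 23.6 kb, and Mirlet7c-1 (chromosome 16) had 19, at 0.278 to 45.9 kb. Mir344i, on the minus strand of chromosome 7, had 11, at 1.38 to 26.0 kb. The peaks do not lie in the hairpins themselves, which count as genes.

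Many peaks outside genes lay close behind a gene on its strand. Within 10 kb of the nearest upstream gene end were 1843 of 3146 cortex peaks (58.6%, 56.9 to 60.3) and 129 of 258 N2A peaks (50%, 43.9 to 56.1). With gene strands from the reference tables alone the shares were 46.8% and 41.5%. The class under 2 kb held 27.5% of the cortex peaks (865 peaks) and 27.5% of the N2A peaks (71 peaks). From 2 to 10 kb the shares were 31.1% (978) and 22.5% (58), and from 10 to 50 kb 18.3% (576) and 14.3% (37). Over 50 kb lay 22.9% of the cortex peaks (720) and 35.7% of the N2A peaks (92), a difference, cortex minus N2A, of -12.8 percentage points (-19.0 to -6.98). From 2 to 10 kb the difference was 8.61 points (2.90 to 13.6). In the other classes its interval held 0. These intervals count peaks as independent, which neighbouring peaks are not, so they are no test of cortex against N2A. A further 7 cortex peaks had no upstream gene end on their strand.

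**Figure D1:**
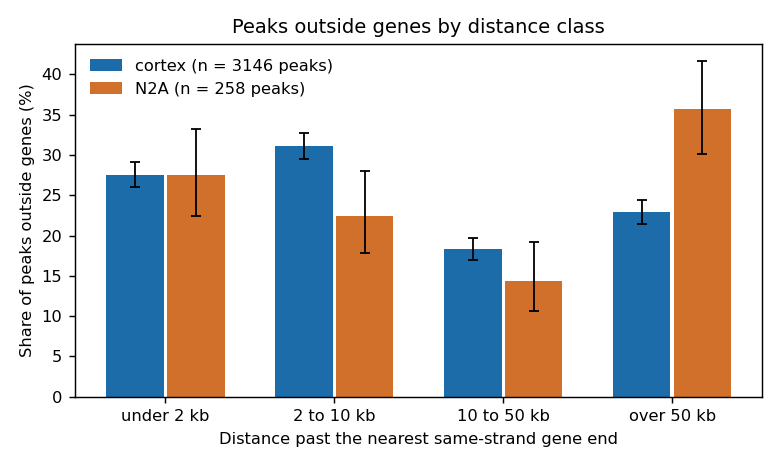
Share of the peaks outside genes (%) in each class of distance past the nearest same-strand gene end, for cortex (left bars) and N2A (right bars), with Wilson 95% intervals for counting error. The lists hold like shares under 2 kb (27.5% and 27.5%), while over 50 kb the cortex bar (22.9%) is lower than the N2A bar (35.7%).

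The class over 50 kb does not consist of peaks remote from all genes. Gene strand was not known for 19973 genes (39.99%), 2732 of them coding, and these did not count as upstream genes. On chromosome 18 no gene had a strand in the reference tables, so distances there are uncertain. Of the N2A peaks over 50 kb, 16 lay on that chromosome 1258 to 2614 kb past Rit2, whose strand came from peaks. Without chromosome 18 the share within 10 kb of a gene end was 58.3% in cortex and 53.1% in N2A. For 412 of the 720 cortex peaks and 69 of the 92 N2A peaks over 50 kb, a gene of unknown strand lay closer upstream. More than 50 kb from every gene span, on either side and strand, lay 218 cortex peaks (6.93% of those outside genes) and 37 N2A peaks (14.3%). The farthest lay 383 kb from any gene in cortex and 469 kb in N2A. Under 2 kb the nearest upstream gene on the strand was also the nearest upstream gene on any strand for 862 of 865 cortex peaks and all 71 N2A peaks.

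Class borders cut through a continuous range. The cortex peak nearest to a gene end lay 1 nt past Eef1akmt2 (p of 0.00380), and the N2A one 9 nt past Abhd2 (p of 0.0181). On either side of 2 kb stood cortex peaks at 1992 nt past Atp8a2 and 2002 nt past Eloc, with p of 2.46e-19 and 0.0122. At 10 kb they stood at 9993 nt past Mir344f (p of 0.00537) and 10000 nt past Slitrk5 (p of 8.14e-05). In N2A the neighbours of the 10 kb border were farther apart, at 8116 nt past Kbtbd4 (p of 0.00777) and 10296 nt past Gm30835 (p of 0.0107). Another 88 cortex and 13 N2A peaks touched a gene and reached past its edge, and these do not belong to the peaks outside genes.

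Because classes differ in length, the number of peaks was set against the sequence available, each strand counted. In cortex there were 20.3 peaks per Mb under 2 kb, 7.18 from 2 to 10 kb, 1.31 from 10 to 50 kb and 0.320 over 50 kb. In N2A there were 1.67, 0.426, 0.0842 and 0.0409 per Mb. Peaks touching a gene had a density of 37.96 per Mb of gene span in cortex and 2.83 in N2A, both strands counted. In finer steps the cortex density was 25.95 per Mb in the first 0.5 kb, 13.6 at 2 to 3 kb, 3.69 at 7.5 to 10 kb, 1.05 at 30 to 50 kb and 0.420 at 100 to 200 kb. In each of the 14 steps but the first it was lower than in the step before. In N2A it was 2.93 per Mb in the first 0.5 kb (33 peaks), 1.03 at 3 to 4 kb (19 peaks) and 0.0258 at 7.5 to 10 kb (1 peak). Beyond 10 kb it lay between 0.0356 and 0.124 per Mb, with 6 to 21 peaks a step.

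**Figure D2:**
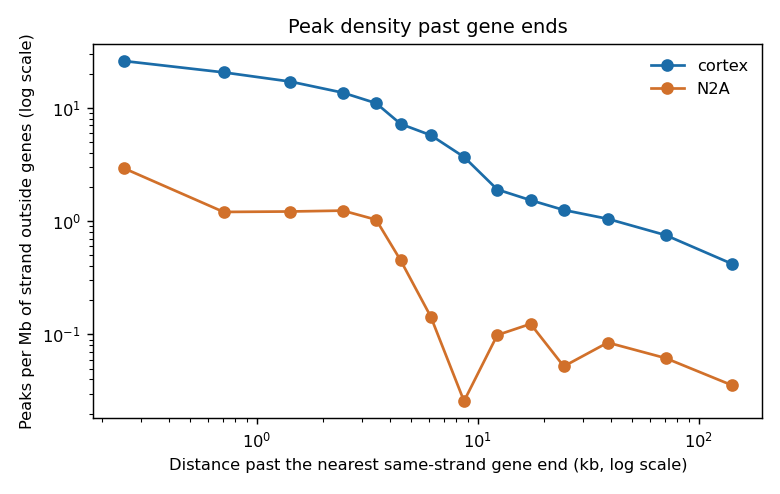
Peaks per Mb of sequence outside genes (log scale) against the distance past the nearest same-strand gene end (kb, log scale, 14 steps drawn at their geometric middle, the first at its arithmetic middle), for cortex and N2A. The cortex line runs from 25.95 per Mb in the first 0.5 kb to 0.420 per Mb at 100 to 200 kb, and the N2A line is at 1.03 per Mb at 3 to 4 kb and at 0.0258 per Mb at 7.5 to 10 kb, where it rests on 1 peak.

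The side and the strand both mattered. In the 2 kb past a gene end, on the gene's strand, there were 865 cortex peaks (20.3 per Mb). In the 2 kb before a gene start on the same strand there were 112 (2.91 per Mb), past the end on the opposite strand 88 (2.07 per Mb), and before the start on the opposite strand 79 (2.05 per Mb). The density past the end on the gene's strand was therefore 6.99 times that before the start (exact interval 5.74 to 8.59) and 9.83 times that on the opposite strand past the end (7.89 to 12.4). N2A had 71 peaks past the end on the gene's strand (1.67 per Mb), against 3, 2 and 1 in the other windows. Its ratio to the opposite strand past the end was 35.5 (9.47 to 299). With gene strands from the reference tables alone this ratio was 8.49 in cortex (6.74 to 10.8) and 30.0 in N2A (7.95 to 253). A strand taken from peaks within a gene could favour the gene's strand, and these last values do not use it.

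**Figure D3:**
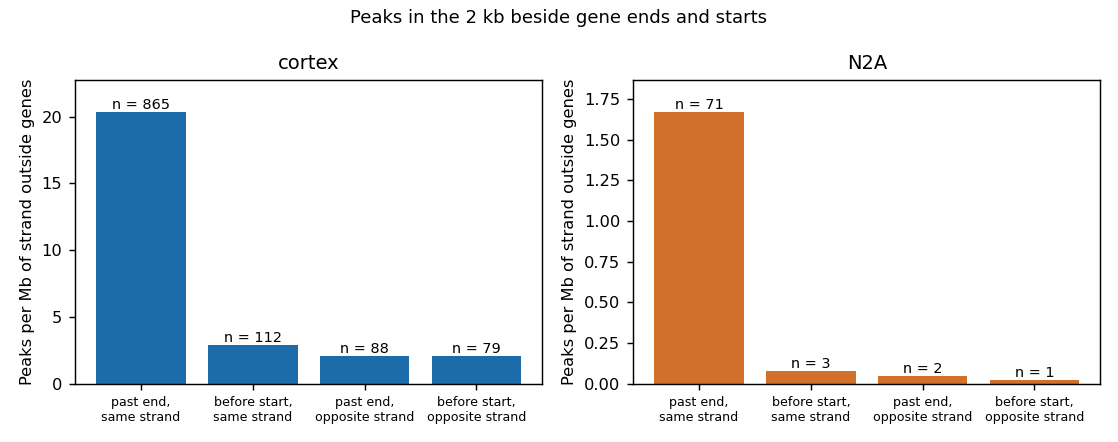
Peaks per Mb of sequence outside genes in 4 windows of 2 kb beside genes, with cortex at left and N2A at right on axes of their own and the number of peaks over each bar. The window past the gene end on the gene's strand holds 865 cortex and 71 N2A peaks, and no other window more than 112 and 3.

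Genes followed by peaks within 10 kb of their end mostly held peaks of the same list themselves, and farther out the shares were lower. With coding genes that have a strand in the reference tables as the upstream genes, 541 of 633 cortex peaks under 2 kb past an end followed a gene with cortex peaks in its span (85.5%), as did 593 of 660 at 2 to 10 kb (89.8%). At 10 to 50 kb it was 77.0%, and over 50 kb 52.1%. Of all such coding genes, 39.4% held cortex peaks. In N2A the shares were 59.3% under 2 kb (32 of 54), 78.6% at 2 to 10 kb (33 of 42), 15% at 10 to 50 kb (3 of 20) and 9.92% over 50 kb (12 of 121), against 13.98% of all such genes. Long genes hold more peaks, and gene length was not taken into account. In the last 5 kb of these coding genes lay 14886 cortex and 4451 N2A peaks. In the first 5 kb past the ends of these genes lay 1040 cortex and 90 N2A peaks outside genes. Of the peaks counted in the 5 kb on either side of an end, 6.53% in cortex and 1.98% in N2A thus lay past it. Peaks past an end that touched another gene were left out, so these are not shares of all peaks within 5 kb of an end.

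Peaks outside genes ranked slightly lower in their list than peaks that touched a gene. The median deposited p in cortex was 0.0155 outside genes and 0.00945 for peaks touching a gene. Above the median rank of the cortex list lay 44.6% of the peaks outside genes and 50.2% of those touching a gene, a difference of -5.55 percentage points (-7.31 to -3.78). In N2A the medians were 0.00830 and 0.00580, and the shares 45.3% and 50.2%, with a difference of -4.82 points (-10.9 to 1.39). A deposited p under 0.05 was carried by 2336 cortex peaks outside genes (74.3%, where the whole list had 77.2%) and by 206 N2A peaks (79.8%, where the whole list had 79.7%). No peak outside genes had a deposited p of 0, against 65 and 8 of those touching a gene. The median cortex p differed little between classes, at 0.0140 under 2 kb, 0.0150 at 2 to 10 kb, 0.0154 at 10 to 50 kb and 0.0177 over 50 kb.

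The 3 cortex peaks of lowest p in each class lay past different genes. The lowest p of all, 1.12e-217, belonged to a peak at chr13:24813769-24813820 (plus strand), 0.870 kb past the coding gene BC005537, which held 6 cortex peaks. Next under 2 kb was a peak 1.20 kb past Pex5l (chr3:32946671-32946722, minus strand, p of 6.57e-156). A peak 1.20 kb past Appbp2 (chr11:85190057-85190108, minus strand) had a p of 3.89e-137. These 2 belonged to clusters of 7 peaks each, while the first stood alone.

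At 2 to 10 kb the strongest cortex peak lay 4.19 kb past Lnpep, a membrane aminopeptidase (chr17:17523486-17523536, minus strand, p of 2.37e-152). Pura, a nucleic acid binding protein of neurons, was followed by one at 4.49 kb (chr18:36297020-36297070, plus strand, p of 2.12e-129). That peak lay between Pura and Igip, whose start is 3.03 kb farther on. The peak 3.55 kb past Abhd2, a lipid hydrolase, lay at chr7:79365151-79365201 on the plus strand (p of 6.31e-118).

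Farther from gene ends, the lowest p at 10 to 50 kb belonged to chr4:138454535-138454586, plus strand (p of 6.58e-82). It lay 12.3 kb past Mul1 and 0.562 kb before the start of Camk2n1, an inhibitor of the synaptic kinase CaMKII. Mul1 held 0 cortex peaks. A peak at chrX:105348420-105348470 (minus strand, p of 8.62e-68) lay 24.5 kb past the noncoding gene 5330434G04Rik, in a cluster of 10, and 4.05 kb before Mir384. Over 50 kb, the lowest p was 7.33e-174, at chr7:59212072-59212123 (minus strand). Its nearest upstream gene on the strand was Snhg14, the long noncoding RNA gene antisense to Ube3a, 60.6 kb away and itself with 246 cortex peaks. Without regard to strand the nearest upstream gene was 16.6 kb away. A peak at chr2:61443851-61443901 (plus strand, p of 4.90e-120) lay 457 kb past Gm33647, with no other peak in its cluster. It was not that far from every gene. The nearest upstream gene without regard to strand was 73323 nt away, and a gene of unknown strand 163442 nt. The start of Gm33753, on the same strand, lay 9.04 kb farther on.

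In N2A the lowest p outside genes, 5.56e-66, belonged to a peak 487 kb past Kbtbd11 on the plus strand, with a gene of unknown strand closer. Both lists had a peak at this site, at chr8:15519914-15519965 (p of 7.98e-73) in cortex and chr8:15519900-15519951 in N2A. Under 2 kb the lowest N2A p, 1.25e-30, was 31 nt past Parp1, the poly(ADP-ribose) polymerase of DNA repair (chr1:180601030-180601080, plus strand). Peaks 1.42 kb past Gna12, a G protein subunit (p of 3.87e-25), and 0.178 kb past Mob1b, a Hippo pathway adaptor (p of 6.69e-20), followed on chromosome 5. At 2 to 10 kb the strongest lay 3.77 kb past Abhd2 (p of 2.49e-26), 4.96 kb past Ago2, the Argonaute that cleaves microRNA targets (p of 1.74e-22), and 3.33 kb past Plcxd3, a phospholipase-like protein (p of 1.57e-18). Over 50 kb, a peak at chrY:90720080-90720131 (plus strand, p of 1.07e-23) lay 3145 kb past Gm20906, with a gene of unknown strand closer.

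Peaks outside genes came in clusters, defined as runs of same-strand peaks at most 5 kb apart. The 3146 cortex peaks formed 1642 clusters, 1170 of them of 1 peak, and the 258 N2A peaks formed 157, 117 of them of 1 peak. Clusters of 5 or more peaks numbered 117 in cortex, with 34.2% of the peaks, and 9 in N2A, with 23.3%. The largest cortex cluster held 43 peaks over 47.3 kb on the plus strand (chrX:61143677-61190940). It began 4.22 kb past the long noncoding RNA gene Cdr1os and ended 0.353 kb before C030023E24Rik, with the gene Cdr1 within its bounds. Cdr1os itself held 16 cortex peaks, and N2A had 0 peaks on that strand of the cluster.

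Downstream of Slitrk1, a synaptic adhesion protein, the minus strand of chromosome 14 carried a series of cortex clusters. They held 24 peaks at 11.3 to 40.1 kb past the gene end, 14 at 46.1 to 58.1 kb, 21 at 67.0 to 82.3 kb, 40 at 88.3 to 142 kb and 13 at 157 to 181 kb. The strongest peak (p of 3.32e-40) lay in the first of these 5 clusters. No gene span of any biotype lies between. In all, 29 cortex peaks lay 10 to 50 kb past Slitrk1 and 88 beyond that, as far as 187 kb, while its own span held 4. N2A had 0 peaks in Slitrk1 and 0 in these clusters. Of all coding genes with a known strand 15.7% held N2A peaks, and of all 1642 cortex clusters 4.08% did.

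Other large cortex clusters followed Gpm6a, a neuronal membrane glycoprotein (29 peaks, 0.227 to 15.9 kb past its end), and Mir137 (28 peaks, 13.9 to 47.7 kb). Cd34, a surface glycoprotein of blood progenitors and vessels, had 16 cortex peaks 10 to 50 kb past its end, as far as 47.0 kb (lowest p of 1.00e-19) and 2 inside. On chromosome 12, 23 peaks lay on the plus strand (chr12:109683918-109709721), between Mir882 and just past Mir379. This is the stretch of small nucleolar and microRNA genes of the imprinted Meg3, Rian and Mirg region, and its strongest peak had a p of 9.71e-52. The small nucleolar RNA genes there have no strand in the tables used, unlike the microRNA genes, and 1 gene of unknown strand lay 3809 nt upstream of that peak. N2A had 0 peaks on the same strand within the bounds of each of the 6 cortex clusters with most peaks. Few of all 1642 cortex clusters held such a peak (67, or 4.08%), so this says nothing particular about these 6.

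The largest N2A clusters were of 9 peaks each. At chr5:7919476-7934938, on the minus strand, 9 N2A peaks followed the long noncoding RNA gene Gm30835 at 10.3 to 25.7 kb, with a lowest p of 8.89e-37. The next lowest, 4.19e-27, belonged to chr5:7928744-7928794, 16.4 kb past Gm30835. Gm30835 held 0 N2A peaks, and the cortex list held 0 peaks in that cluster. Without predicted genes such as Gm30835, the strongest of these peaks lay 149 kb past a gene end. From 10 to 50 kb past Gm30835 there were 12 N2A peaks in all, against 3 each past Slc7a15 and Gm39275 and 2 past Epc2. The other N2A clusters of the 6 with most peaks followed Plcxd3 (9 peaks), Sv2c (9), Lnpep (7), Ago2 (6) and Abhd2 (5), and in each of these the cortex list also had peaks, from 3 after Abhd2 to 11 after Plcxd3. Of all clusters, 67 of 1642 in cortex (4.08%) had an N2A peak within their bounds on the same strand, inside genes or not, and 64 of 157 in N2A (40.8%) a cortex peak.

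Within 10 kb past their ends, 893 genes were followed by cortex peaks, 780 of them coding. Most, 554 genes, had 1 such peak, and 84 had 5 or more. Gpm6a and Aasdhppt, a phosphopantetheinyl transferase, led with 18 peaks each. Next were Arfgef3, of the ARF exchange factor family (15), the potassium channel Kcnh5 (14), the membrane metalloprotease Mmp16 (14), the neurexophilin Nxph1 (13), Plcxd3 (12), Xkr6 (12), D130040H23Rik (12) and the pyruvate dehydrogenase kinase Pdk3 (11, as many as Tmem245). N2A had peaks past the end of 1 of these 10, Plcxd3, and also past Tmem245 (2). Of all 893 genes, 49 (5.49%) were followed by N2A peaks, against 0.308% of all coding genes with a known strand. Within the 10 kb counted, cortex peaks past the ends of these 10 genes reached 5.71 kb in Plcxd3 and 6.03 kb in Arfgef3, the 2 shortest reaches, and 9.98 kb in Nxph1.

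The strength of peaks past an end varied within a gene. Positions here are those of the peak's middle relative to the gene end, negative inside the gene. Gpm6a had 1 cortex peak in the last 10 kb of its span, at -1.63 kb, with a deposited p of 0. Past the end its peaks had p of 5.86e-13 at 0.253 kb, 2.74e-10 at 5.14 kb, 9.06e-103 at 7.01 kb, 1.45e-28 at 11.8 kb and 9.08e-08 at 15.9 kb. The strongest of them is thus neither the nearest nor the farthest. For Arfgef3 the strongest peak in the last 10 kb of the span had a p of 1.41e-70, at -1.09 kb. The strongest past it had 1.36e-60, at 1.79 kb. Aasdhppt had 1.52e-35 at -1.48 kb and 5.15e-12 at 2.54 kb.

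In N2A 66 genes, 59 of them coding, were followed by peaks within 10 kb. Of the 66, 49 (74.2%) were followed by cortex peaks too, which is 5.49% of the 893 genes in cortex. Among all 19155 coding genes with a known strand, 4.07% were followed by cortex peaks within 10 kb. Plcxd3 had 12 cortex and 9 N2A peaks past its end, 4 of which overlapped between the lists. The strongest was at 3.35 kb in cortex (p of 4.29e-36) and at 3.36 kb in N2A (p of 1.57e-18). Sv2c, a synaptic vesicle glycoprotein, had 9 and 9 with 3 overlapping, and its strongest peaks lay at 3.64 kb in cortex (p of 6.24e-23) and at 3.66 kb in N2A (p of 2.63e-18). Lnpep had 7 and 7 with 2 overlapping, and here the strongest lay apart, at 4.21 kb in cortex (p of 2.37e-152) and at 0.799 kb in N2A (p of 5.94e-06).

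Among the other leading N2A genes, Ago2 had 8 cortex and 6 N2A peaks, and Abhd2 had 3 and 5. Mob1b had 5 in each list, 4 of them overlapping. Appbp2, of which N2A held 0 peaks inside the gene, had 7 and 5 past its end with 0 overlapping. Alg10b, a glycosyltransferase of N-glycan synthesis, had 7 and 5, the noncoding gene Gm33272 on the Y chromosome 5 and 4, and Tnks, a tankyrase, 4 and 3.

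**Figure D4:**
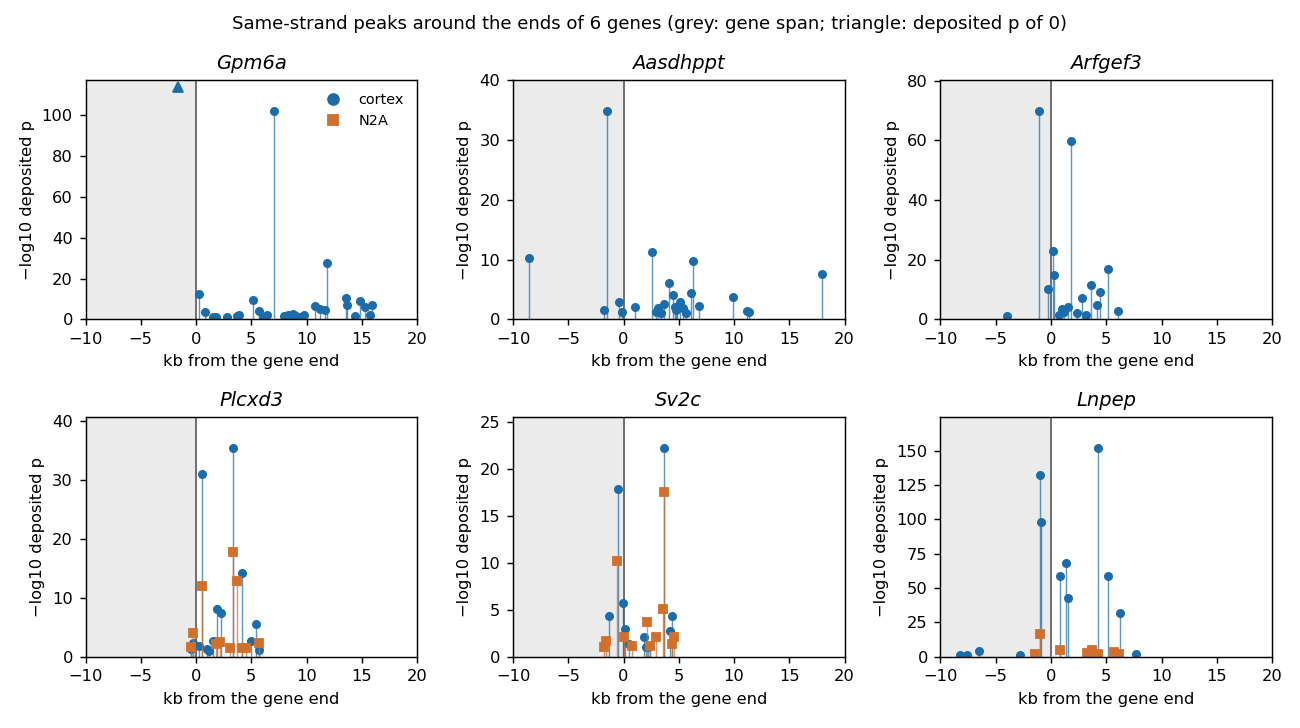
Deposited p of each same-strand peak, as −log10, against its distance from the gene end (kb, negative inside the span, shaded grey), for the 3 genes with most peaks within 10 kb past their end in cortex (upper row) and in N2A (lower row). Circles are cortex peaks, squares N2A peaks, and the triangle is a peak with a deposited p of 0. The strongest Plcxd3 peaks stand at 3.35 kb in cortex and 3.36 kb in N2A, and Gpm6a has peaks as far as 15.9 kb.

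Of the N2A peaks outside genes, 72 of 258 (27.9%, 22.8 to 33.7) overlapped a cortex peak on the same strand by at least 1 nt. Among N2A peaks touching a gene, 42.4% did (41.3 to 43.6), and among all N2A peaks on named chromosomes 41.9%. The difference, outside minus touching, was -14.5 percentage points (-19.8 to -8.63). By class the share was 39.4% under 2 kb (28 of 71), 32.8% at 2 to 10 kb (19 of 58), 13.5% at 10 to 50 kb (5 of 37) and 21.7% over 50 kb (20 of 92). In the other direction 72 of 3146 cortex peaks outside genes overlapped an N2A peak (2.29%), where 3.13% of all cortex peaks did. Within 500 nt of a cortex peak lay 52.3% of the N2A peaks outside genes. That wider share is not given for peaks touching a gene, so it cannot be set against their 42.4%, which is for overlap.

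Of the 10 N2A peaks of lowest p that overlapped a cortex peak, 6 lay within 10 kb past a gene end. The pair after Parp1 had p of 5.55e-17 in cortex and 1.25e-30 in N2A, and that after Gna12 had 5.10e-14 and 3.87e-25. After Ago2 the pair had p of 3.42e-17 in cortex and 1.74e-22 in N2A, and after Mob1b 3.65e-04 and 6.69e-20. The other 4 were single peaks farther from the nearest upstream gene end of known strand. On chromosome 16 a plus-strand pair lay at 17222380 to 17222431 in cortex (p of 7.11e-09) and at 17222373 to 17222424 in N2A (p of 1.03e-44). Its N2A peak lay 76.3 kb past LOC115488656, but a gene of unknown strand lay 8391 nt upstream. On chromosome 7 a pair began at 117340189 in cortex (p of 8.90e-04) and at 117340190 in N2A (p of 1.55e-17). Here the N2A peak lay 608 kb past Gm39074, with a gene of unknown strand 16523 nt upstream. A pair 14.2 kb past the defensin gene Defb38, on chromosome 8, had p of 0.0166 in cortex and 6.98e-18 in N2A, and the remaining pair is the one past Kbtbd11.

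**Figure D5:**
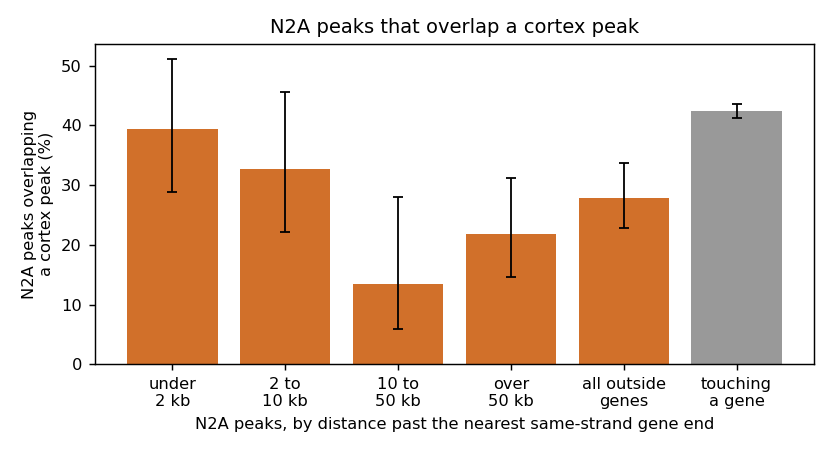
Share of N2A peaks (%) that overlap a cortex peak on the same strand, for N2A peaks outside genes by class of distance past the nearest same-strand gene end and in all, and for N2A peaks touching a gene (grey), with Wilson 95% intervals. All N2A peaks outside genes stand at 27.9%, those touching a gene at 42.4%.

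Which known gene groups were followed by peaks was read from hand-written lists, over members with a known strand and beside the share of all such coding genes. In cortex 780 of 19155 coding genes (4.07%) had a peak within 10 kb past their end. Among splicing regulators 7 of 26 did, namely Nova1 (9 peaks, lowest p of 2.23e-19), Qk (3), Srsf1 (2), Srsf7 (2), Nova2 (2), Rbfox2 (1) and Ptbp2 (1). No peak past Srsf7, Nova2 or Ptbp2 had a deposited p under 0.05, the lowest being 0.0592, 0.0678 and 0.0695. Nova1 is a neuronal splicing factor that binds YCAY motifs. Of the glutamate and GABA receptor genes 6 of 23 had such peaks, with Gria2, an AMPA receptor subunit (4, lowest p of 1.61e-14), and Gabbr1, a GABA-B receptor subunit (4), ahead of Gabra4 (3), Grik2 (2), Grm5 (1) and Gria4 (1).

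Long noncoding RNA genes had cortex peaks past the end in 4 of 15 members, Sox2ot (5), Dlx6os1 (5), Rian (2) and Pantr1 (2). The share of all coding genes is not a like background for them, and the share over all long noncoding RNA genes was not counted. Presynaptic genes had them in 2 of 23, Snap25 (2) and Rims2 (2). Immediate early genes had them in 1 of 17, the postsynaptic scaffold gene Homer1 (6, lowest p of 1.63e-19), and glial markers in 1 of 17, the myelin gene Mobp (1, p of 6.30e-10). Cytoskeleton genes (0 of 22), proliferation genes (0 of 19) and the ELAV-like genes themselves (0 of 4) had none. In N2A 59 of 19155 coding genes (0.308%) had such a peak, and 0 members of these lists did. Peaks past a gene end can be called only where RNA is made, and RNA levels were not measured.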

How the data were processed

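Elavl HITS-CLIP was done on 3 cortex samples and 1 N2A sample, and the authors deposited 1 peak list per group with a p-value per peak. Per the submitters' processing notes the aligner was Novoalign and the build hg19, while chromosome names are those of mouse and coordinates were read as GRCm38. No source used here gives the peak caller, its filters or how samples were merged. All deposited peaks, with ends 50 to 51 nt after their starts, were used, except those on the mitochondrial chromosome and scaffolds.

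Peaks were set against 49943 RefSeq gene spans of GRCm38.p6, with closed intervals and 1 nt of overlap. Gene strand came from the promoter table for 27025 genes, the microRNA table for 1072 and, for 1873, from most peaks touching that gene alone. On genes with both, peaks and promoter table gave the same strand in 97.8%. Sequence available per class was counted between the outermost genes of each chromosome. The code for overlaps and distances was checked against a direct count on randomly drawn genes and peaks, not on the deposited peaks. Python 3.11.15, numpy 2.4.6 and pandas 2.3.3 were used.

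Members and gene lists were chosen with earlier results of these data known. Named were the 3 peaks of lowest p per list and class, the 6 clusters with most peaks, the 10 genes with most peaks within 10 kb and the 5 at 10 to 50 kb, the 10 shared peaks of lowest N2A p, and list members. The Slitrk1 clusters beyond the first 6, the microRNA genes and Rit2 were chosen after their values were seen. Alternatives were p under 0.05 or 0.001, other gene sets, strand rules, gaps and overlaps. The ion channel list is not reported here.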

Additional observations from a re-analysis of the deposited data

Results flagged for a closer look

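The peaks outside named chromosomes take no part in the comparisons, and more were present than a count of 0 allows, which is 3. The mitochondrial chromosome carried 29 cortex peaks and 5 N2A peaks. Unplaced scaffolds carried 23 cortex peaks and 14 N2A peaks. No group had the 4 or more values per sample that a search for outlying samples needs.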

How the results depend on the processing

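The share outside genes in cortex (3.22%) was 3.10% with p under 0.05, 2.73% with p under 0.001, 5.08% with coding spans alone, 5.04% without predicted genes, 2.51% with spans widened by 1 kb and 3.75% with spans on the peak's strand alone. In N2A (3.53%) it was 3.05% with p under 0.001, 5.19% with coding spans, 4.73% without predicted genes and 2.71% with widened spans. The share within 10 kb of a gene end in cortex (58.6%) was 51.8% with coding genes alone, 68.4% without gene strand, 51.8% with strand from peaks alone, 53.9% without predicted genes, 61.1% with p under 0.001 and 55.4% with 1 value per cluster. With strand from the reference alone, an alternative chosen after seeing the data, it was 46.8% in cortex and 41.5% in N2A, since fewer genes then count. In N2A (50%) it was 58.1% without gene strand and 42.0% with 1 value per cluster. Within 2 kb 593 genes, not 893, were followed by cortex peaks, a narrower window by construction. Of the N2A peaks outside genes 52.3% lay within 500 nt of a cortex peak, against 27.9% overlapping, with no like share for peaks touching a gene. Of the 24 named peaks, the distance class changed for 4 with coding genes alone, 5 with strand from peaks alone, 3 without gene strand and 2 without predicted genes. Distances of further peaks changed within a class and are not in these counts. With coding genes alone, the cortex peak at chr7:59212072 lay 770 kb past a gene end instead of 60.6 kb. The 2 named peaks past Gm30835 were among those that changed class, except where gene strand was left out. The other settings moved these values within their counting intervals, or cluster and gene counts by less than 1.5 times. Reading positions from 0 or leaving out chromosome 18, where no gene strand came from the reference, were among them and were chosen after seeing the data. Without read counts, depth limits are unknown. No paired analysis was possible because the lists carry no replicate numbers, and for the same reason no replicate could be left out.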
